A study of Mus musculus with 19 samples.

Results

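The comparison described here sets 3 libraries of mouse liver tumors that the labels call MYC_Recur against 5 that they call MYC_HCC, where HCC stands for hepatocellular carcinoma. Recur is read here as recurrent, and MYC_HCC as the original tumor group. A gene symbol was a member if it was not a bare number and its deposited value was at least 1 in 3 or more of these 8 libraries. That rule kept 11887 of 19486 symbols, or 61.0%. Another 902 symbols were listed at 0 in all 8 libraries and 6697 were above 0 but did not reach the minimum. At its edge, 456 members reached 1 in exactly 3 libraries, and 549 symbols just outside it reached 1 in exactly 2.

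Every sample is liver tissue with hepatocellular carcinoma, taken from tumors frozen on collection, and the measurement is RNA sequencing of total RNA. The labels give each group by its name only. They give no MYC transgene, promoter, strain, sex, age, agent, interval before recurrence or animal, so what separates a MYC_Recur tumor from a MYC_HCC tumor is known here only from those names. Nor is it given whether libraries of 1 group come from separate animals, so the p-values here are measured against the scatter of these samples, which may be technical. The series also holds 5 MYC_Twist1_HCC, 3 MYC_OFF and 3 MYC_Twist1_OFF libraries, which entered the fit only to estimate that spread. The labels mark the MYC_HCC and MYC_Twist1_HCC libraries as taken from an earlier series, whereas MYC_Recur belongs to the 9 new libraries. Tumor group and deposit therefore cannot be told apart in any difference given here.

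MYC is a transcription factor that pairs with MAX and binds DNA at the E-box CACGTG. It drives genes of ribosome production, metabolism and cell division, and its overexpression in hepatocytes gives liver cancer in mice. Tumors driven by an oncogene can come back after treatment or withdrawal of that oncogene, with the oncogene expressed again or with another driver in its place. Comparing MYC_Recur with MYC_HCC asks which genes differ between a tumor that came back and an original tumor.

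Values are the normalized values the authors deposited, which have no stated unit, and differences are on the log2(value + 1) scale as MYC_Recur minus MYC_HCC. Deposited values summed to between 547360 and 690310 in MYC_Recur and between 516133 and 629906 in MYC_HCC. Between 11231 and 11736 symbols had a value of at least 1 in the MYC_Recur libraries and between 11078 and 11414 in the MYC_HCC libraries. The number of reads behind a value is unknown, so no counting interval can be given. In bulk tissue, fewer cells of a type and less RNA per cell cannot be told apart.

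The MYC_Recur libraries separated from the MYC_HCC libraries, and 1 MYC_HCC library stood apart from both. On the first principal component, which held 44.5% of the variance over the members, MYC_Recur 1, 2 and 3 lay at 39.5, 50.1 and 55.0. The MYC_HCC libraries 1 to 5 lay at -14.0, -7.6, -5.4, -84.9 and -32.7 on that axis. Correlations across the members ran from 0.920 to 0.939 among the MYC_Recur libraries and were 0.945 or higher among MYC_HCC 1, 2, 3 and 5. MYC_HCC 4 correlated at 0.838 to 0.888 with the other MYC_HCC libraries and at 0.769 to 0.796 with MYC_Recur. Genes are not independent replicates, so these correlations describe the libraries only.

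**Figure D1:**
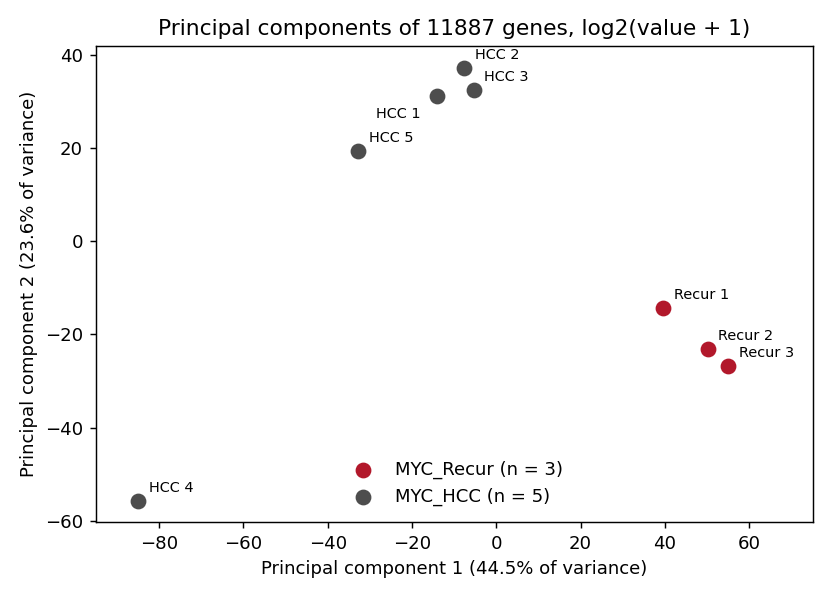
Principal components of log2(value + 1) over the 11887 members, with the first component (44.5% of the variance) on the horizontal axis and the second (23.6%) on the vertical axis. The 3 MYC_Recur libraries sit together at 39.5 to 55.0 on the first component, 4 MYC_HCC libraries lie between -32.7 and -5.4, and MYC_HCC 4 lies apart at -84.9.

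MYC_HCC 4 and 5 also differed from the other libraries in how the table was filled. A total of 38 members, in 4 blocks, shared exactly the same values in all 17 libraries other than these. Of the 38, 32 were called higher in MYC_Recur, beside 7.67% of all members. The calls are not separate measurements, since 29 of the 32 lay in 1 block and the rest in 1 other. Another 21 members were listed at 0 in both MYC_HCC 4 and 5 and at 1 or more in the other 6 libraries, whereas no other pair among the 8 libraries had more than 4 such members.

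Myc itself was not called. Its values were 159, 156 and 152 in MYC_Recur, against 158, 180.5, 165, 129 and 166 in MYC_HCC (log2 difference -0.03, SE 0.20, adjusted p = 0.95). The MYC_Recur libraries lay inside the MYC_HCC range, and Myc was not called in any of 23 alternative fits. Whether these reads come from a transgene or from the mouse gene is not given in the sources used here. Twist1, which names other groups of the series, lay between 0.02 and 0.03 in MYC_Recur and between 0.01 and 0.27 in MYC_HCC, below the level that makes a gene a member.

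At an adjusted p under 0.05 (limma, Benjamini-Hochberg over the 11887 members), 1456 genes differed, or 12.2% of those tested. Of these, 912 were higher in MYC_Recur (7.67%) and 544 were lower (4.58%). The changes were large: 1075 called genes differed by more than 2-fold, 160 were more than 4-fold higher and 125 more than 4-fold lower. Among called genes, 837 higher genes (7.04%) and 479 lower genes (4.03%) had MYC_Recur values entirely outside the MYC_HCC range. Without regard to the call, 12.7% of members lay wholly above and 7.87% wholly below that range. Some members passed the minimum only through the group where they are high: 155 reached 1 in the 3 MYC_Recur libraries alone, of which 108 were called higher, and 258 in MYC_HCC libraries alone, of which 120 were called lower. Such genes had to differ and are no support for a difference. Among the genes described below, Veph1, Zfp964, Clec3b, Tgfb2, Tigit and Cd79b reached 1 in MYC_Recur alone. Acsl3, Med25, Sephs1, Fzr1, Dda1, Mid1, Xpo4, Cyp2f2, Cd200, Dcn and Gpr182 reached it in MYC_HCC alone, and the values and p of all these genes are a description. Without MYC_HCC 4 and 5, 530 genes were called higher (4.46%) and 354 lower (2.98%), and 797 of the 1456 were called in both fits in the same direction. MYC_Recur 3 also mattered: without it 539 genes were called higher and 268 lower, and without MYC_Recur 2 there were 563 and 377.

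The direction of the calls depended on the scaling of the libraries. The median log2 difference over all members was 0.07, with quartiles of -0.29 and 0.44, and 62.6% of calls were higher. Rescaling the libraries to equal sums moved that median to -0.05, and then 663 genes were called higher and 621 lower. With median-of-ratios factors the numbers were 728 higher and 738 lower, with upper-quartile scaling 759 and 673, and with trimmed-mean factors 770 and 686. Under all 4 of these scalings as well as the deposited one, 621 genes were called higher and 521 lower. Deposit coincided with group. In 425 of the higher and 252 of the lower calls all 3 MYC_Recur libraries lay beyond all 10 libraries taken from the earlier series. In 71 of the higher and 71 of the lower calls all 9 new libraries, whatever their group, lay beyond all 10 earlier ones. Calls were already chosen for a difference between MYC_Recur and MYC_HCC. The share of all members with such values was not computed, so these counts cannot be judged as high or low.

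**Figure D2:**
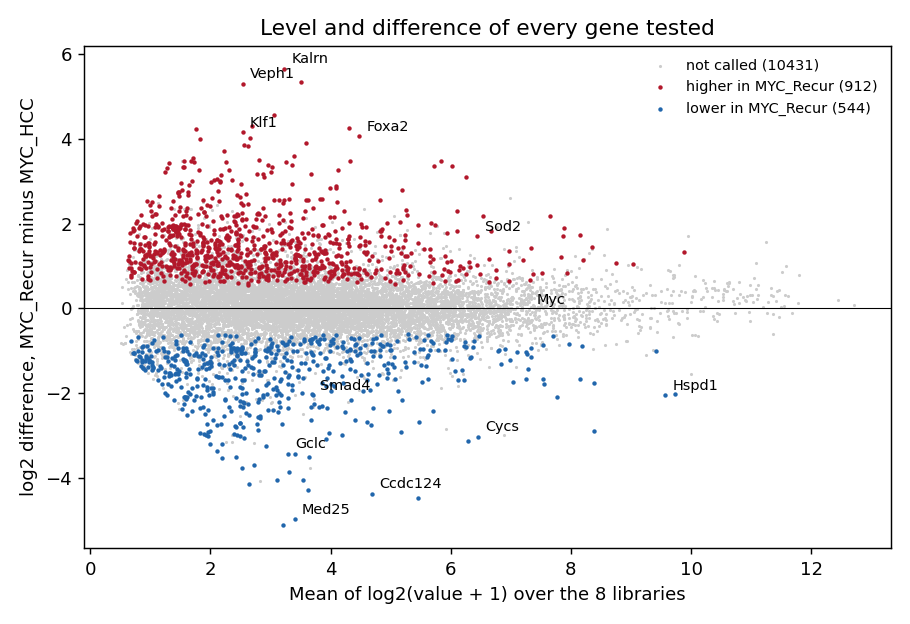
Log2 difference of every member (MYC_Recur minus MYC_HCC, vertical axis) against its mean log2(value + 1) over the 8 libraries (horizontal axis), with called genes in color. The 912 higher and 544 lower genes occur across the range of levels, and the median of all members is 0.07.

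The 12 largest rises included Kalrn, Nkain3, Veph1, Gcnt1, Plekha1, Klf1, Foxa2, Acvrl1, Zfp964, Pdlim5 and Rsl1. They were chosen among called genes with no overlap between the groups, by the size of the log2 difference. Kalrn encodes kalirin, an exchange factor that activates small GTPases, at chr16:33969073-34573532 on GRCm38. It had values of 128, 71.6 and 138 in MYC_Recur, against 1.3, 0.11, 0.3, 3.48 and 2.15 in MYC_HCC (log2 difference 5.66, SE 0.50, adjusted p = 3.45e-06). Every MYC_Recur library was high and every MYC_HCC library was low. Kalrn did not exceed 0.15 in the 6 MYC_OFF and MYC_Twist1_OFF libraries and lay between 1.14 and 10.9 in MYC_Twist1_HCC. Foxa2 encodes a pioneer factor that opens chromatin at liver genes and lies at chr2:148042877-148046969. It had values of 113, 202 and 93.3 in MYC_Recur, against 9.03, 3.51, 4.45, 16.2 and 5.67 in MYC_HCC (log2 difference 4.06, SE 0.61, adjusted p = 0.000335). Here too the groups were well separated, but Foxa2 was higher still in MYC_OFF, at 290.03 to 998. In the MYC_Twist1_HCC tumors it lay between 21.15 and 214.22. The promoter windows of both genes, 250 bases before to 50 bases after the RefSeq start on GRCm38.p6, are shown because Kalrn has the largest rise of all and Foxa2 is the liver factor among the rises. Neither window holds CACGTG, the E-box that MYC and MAX bind. The Kalrn window lies inside the gene interval given above and not at its outer end, and 1 window per gene was searched.
Kalrn, chr16:34513978-34514277, minus strand: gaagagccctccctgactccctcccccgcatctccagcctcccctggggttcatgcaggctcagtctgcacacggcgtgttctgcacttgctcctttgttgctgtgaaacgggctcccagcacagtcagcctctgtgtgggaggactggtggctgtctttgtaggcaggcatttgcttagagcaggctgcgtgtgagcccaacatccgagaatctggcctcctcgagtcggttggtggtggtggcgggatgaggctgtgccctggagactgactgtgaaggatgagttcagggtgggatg
Foxa2, chr2:148046920-148047219, minus strand: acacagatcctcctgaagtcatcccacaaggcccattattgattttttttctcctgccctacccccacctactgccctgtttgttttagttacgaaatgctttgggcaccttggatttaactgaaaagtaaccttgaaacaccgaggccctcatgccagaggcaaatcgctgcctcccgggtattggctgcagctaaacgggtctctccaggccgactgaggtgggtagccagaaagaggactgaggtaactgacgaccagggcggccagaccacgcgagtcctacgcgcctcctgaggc

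Klf1, the master factor of red cell genes, had values of 44.7, 20.6 and 43.02 in MYC_Recur, against 1.43, 2.22, 0.8, 0.47 and 0.42 in MYC_HCC (log2 difference 4.16, SE 0.48, adjusted p = 4.74e-05). The groups did not overlap. Gata1, which acts upstream of Klf1 in red cell precursors, was listed at 0 in all 3 MYC_Recur libraries and at 0 to 0.13 in MYC_HCC. Acvrl1, an endothelial receptor for BMP9 also called ALK1, had values of 166, 16.96 and 14.7 in MYC_Recur, against 0.88, 1.32, 0.46, 1.79 and 1.96 in MYC_HCC (log2 difference 4.03, SE 0.57, adjusted p = 0.000205). MYC_Recur 1 stood far above the other MYC_Recur libraries, which were still above all of MYC_HCC. Pdlim5, an actin-associated protein with PDZ and LIM domains, had values of 103, 20.9 and 122 in MYC_Recur, against 4.92, 1.48, 2.48, 7.05 and 2.81 in MYC_HCC (log2 difference 3.91, SE 0.63, adjusted p = 0.000661). MYC_Recur 2 was the lowest of its group there.

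Gcnt1, which makes the core 2 branch of O-linked glycans, had values of 74.3, 16.02 and 172 in MYC_Recur, against 3.36, 1.47, 3.31, 0.35 and 0.68 in MYC_HCC (log2 difference 4.57, SE 1.0, adjusted p = 0.00631). Its MYC_Recur values spanned a wide range and all exceeded MYC_HCC, and in MYC_Twist1_HCC it lay between 10.87 and 448.75. Rsl1, a zinc finger repressor that sets male-biased liver genes in mice, had values of 16.4, 35.3 and 54.2 in MYC_Recur, against 1.75, 0.82, 2.29, 0.96 and 0.91 in MYC_HCC (log2 difference 3.84, SE 0.50, adjusted p = 0.000113). In MYC_OFF it lay between 559.68 and 1108, far above MYC_Recur and MYC_HCC, and in MYC_Twist1_HCC between 22.87 and 131.98. Veph1 (5.3 ± 0.52 SE, adjusted p = 8.08e-06), Nkain3 (5.35 ± 0.99 SE, adjusted p = 0.00207) and the zinc finger gene Zfp964 (4.0 ± 0.50 SE, adjusted p = 7.8e-05) were also among the 12 largest rises, and Veph1 and Zfp964 reached 1 in MYC_Recur alone. Plekha1, which binds the phosphoinositide product of PI3-kinase through a PH domain, had values of 101, 147 and 129.9 in MYC_Recur, against 28.5, 0, 0, 17.6 and 20.2 in MYC_HCC (log2 difference 4.27, SE 1.2, adjusted p = 0.0256). It was listed at 0 in MYC_HCC 2 and 3 and was not called without MYC_Recur 1, MYC_Recur 2, MYC_Recur 3, MYC_HCC 2 or MYC_HCC 3, adjusted p 0.0539 to 0.0847. In 7 of the 12 genes the 6 OFF libraries all lay above the MYC_HCC range, and in 7 of the 12 the 5 MYC_Twist1_HCC libraries did. The rises were chosen for MYC_HCC values below all of MYC_Recur, and the share of all members with such values was not computed.

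The 12 largest falls were Acsl3, Med25, Ccs, Ccdc124, Map2k2, Sephs1, Get4, Hibch, Kif5b, Fzr1, Dda1 and Mid1, most of them near 0 in MYC_Recur. Med25 encodes a subunit of Mediator, the complex that links activators to RNA polymerase II, and lies at chr7:44876765-44892712. Med25 was at 0.21, 0.51 and 0 in MYC_Recur, against 49.9, 45.4, 22.9, 26.4 and 55.1 in MYC_HCC (log2 difference -4.98, SE 0.38, adjusted p = 8.15e-07). Med25 reached 1 in MYC_HCC alone, so this difference is a description. Get4, at chr5:139252324-139270051, encodes a factor that hands tail-anchored proteins to the membrane insertion pathway. Its values were 0.36, 1.43 and 0 in MYC_Recur, against 29.7, 20.9, 36.5, 15 and 21.4 in MYC_HCC (log2 difference -4.05, SE 0.45, adjusted p = 3.55e-05). Again MYC_Recur was near 0 and MYC_HCC was not. The promoter windows are shown because Get4 was the 1 gene of the 19 largest changes with a RefSeq window whose window holds CACGTG, in capitals from base 250, the last base before the RefSeq start. The motif was searched as CACGTG, which reads the same on both strands.
Med25, chr7:44892375-44892674, minus strand: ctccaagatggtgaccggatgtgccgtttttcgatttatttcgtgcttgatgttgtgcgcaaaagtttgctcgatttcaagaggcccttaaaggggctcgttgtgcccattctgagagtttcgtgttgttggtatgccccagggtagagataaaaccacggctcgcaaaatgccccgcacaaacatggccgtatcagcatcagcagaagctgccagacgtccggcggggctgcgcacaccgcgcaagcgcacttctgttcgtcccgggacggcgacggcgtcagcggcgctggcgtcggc
Get4, chr5:139252074-139252373, plus strand: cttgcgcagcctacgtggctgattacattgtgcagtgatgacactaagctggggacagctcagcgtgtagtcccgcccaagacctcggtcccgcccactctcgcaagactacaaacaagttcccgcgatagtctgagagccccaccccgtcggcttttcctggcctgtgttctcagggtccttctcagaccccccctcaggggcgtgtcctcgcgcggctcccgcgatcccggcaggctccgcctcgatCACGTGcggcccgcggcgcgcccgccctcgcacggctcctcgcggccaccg

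Map2k2 encodes MEK2, a kinase of the RAS-MAPK cascade. It had values of 0.3, 4.16 and 0.05 in MYC_Recur, against 33.5, 40.4, 47.7, 28.1 and 35.9 in MYC_HCC (log2 difference -4.29, SE 0.89, adjusted p = 0.00455). The highest MYC_Recur value was far under the lowest MYC_HCC value. Ccs, the chaperone that loads copper into superoxide dismutase 1, had values of 4.95, 37.99 and 0.1 in MYC_Recur, against 184, 136, 192, 103 and 109 in MYC_HCC (log2 difference -4.48, SE 0.74, adjusted p = 0.000809). MYC_Recur 2 was intermediate, and the others were lower. Fzr1, an activator of the anaphase-promoting complex, had values of 0.06, 0.24 and 0.11 in MYC_Recur, against 12.4, 29.4, 12.5, 9.88 and 13.2 in MYC_HCC (log2 difference -3.76, SE 0.42, adjusted p = 3.61e-05). Kif5b, the heavy chain of the kinesin-1 motor, had values of 0.73, 2.49 and 0.04 in MYC_Recur, against 27.2, 24.9, 22.4, 27.4 and 28.7 in MYC_HCC (log2 difference -3.87, SE 0.59, adjusted p = 0.000353). Neither gene overlapped between the groups. Sephs1, of the selenophosphate synthetase family, had values of 0, 0.09 and 0 in MYC_Recur, against 18.2, 24.7, 11.8, 16.4 and 17.7 in MYC_HCC (log2 difference -4.15, SE 0.40, adjusted p = 8.08e-06). Dda1, a component of the DDB1-CUL4 ubiquitin ligase, had values of 0.18, 0.34 and 0.48 in MYC_Recur, against 17.6, 19.5, 17.8, 11.3 and 16.5 in MYC_HCC (log2 difference -3.7, SE 0.46, adjusted p = 7.22e-05). Sephs1 and Dda1 were under 0.5 in every MYC_Recur library, and like Fzr1 they reached 1 in MYC_HCC alone.

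Ccdc124 (-4.38 ± 0.46 SE, adjusted p = 1.62e-05) and Hibch, an enzyme of valine breakdown (-4.05 ± 0.92 SE, adjusted p = 0.00809), completed the falls that had some MYC_Recur value above 0. Hibch was not called without MYC_HCC 4 and 5 together, adjusted p = 0.051. Acsl3, a long-chain acyl-CoA synthetase of lipid droplets, was listed at 0 in all 3 MYC_Recur libraries and at 53.09, 22.04, 39.48, 21.25 and 45 in MYC_HCC (adjusted p = 0.0237). The Acsl3 call was fragile, since it was not called without MYC_Recur 1, MYC_Recur 2, MYC_Recur 3 or MYC_HCC 4 and 5 together, adjusted p 0.0602 to 0.0772. Mid1, a ubiquitin ligase that binds microtubules, was listed at 0 in all 3 MYC_Recur libraries and at 5.67, 5.28, 17.8, 23.4 and 9.43 in MYC_HCC (adjusted p = 0.000987). A listed 0 can be a failed estimate, so no fold is given for either. In 10 of the 12 falls all 6 OFF libraries lay below the MYC_HCC range. In 5 of the 12 all 5 MYC_Twist1_HCC libraries did. The falls were chosen for MYC_HCC values above all of MYC_Recur, and the share of all members with such values was not computed. Of the 24 largest changes, 8 reached 1 in 1 group alone, 2 of them rises and 6 falls. As a description, 22 of the 24 were called without each of the 8 libraries in turn and 22 without MYC_HCC 4 and 5.

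**Figure D3:**
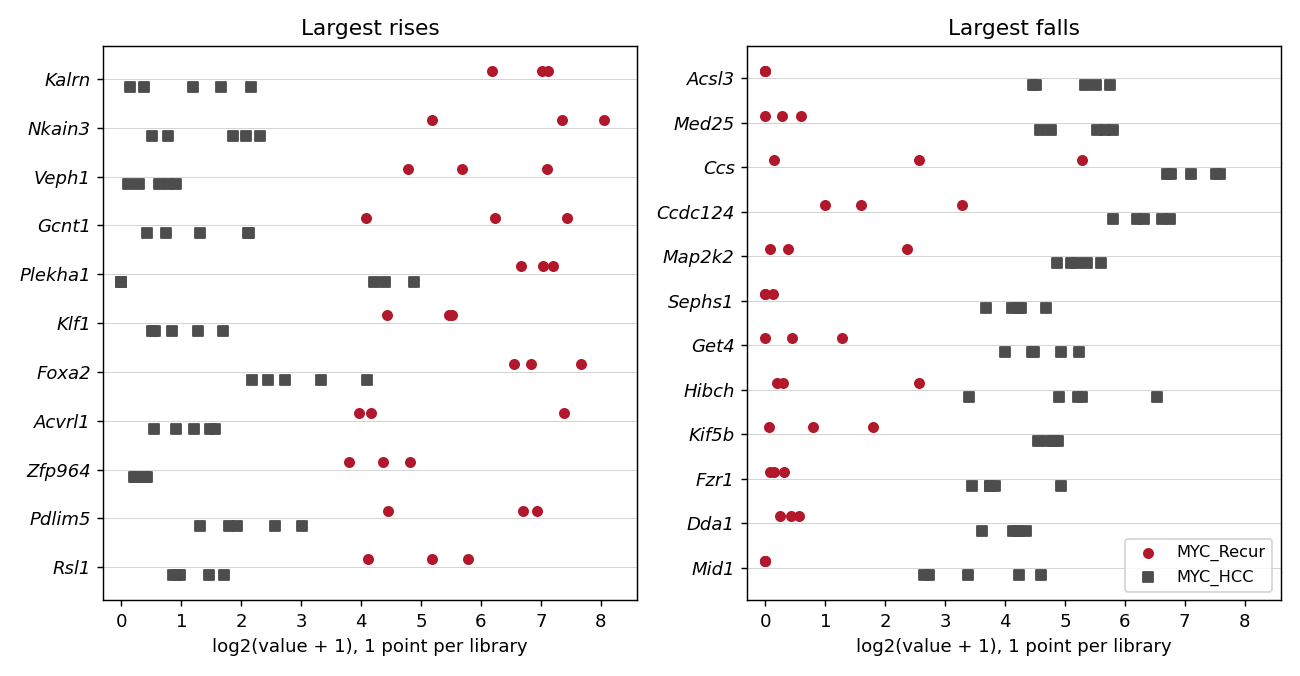
Deposited values, as log2(value + 1) on the horizontal axes, of 11 of the 12 largest rises and of the 12 largest falls in each library, with MYC_Recur (red circles) above MYC_HCC (dark squares) for each gene. No gene overlaps between the groups, which the choice of genes required.

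The genes with the smallest p included others with moderate differences and tight replicates. Cacna1c, the pore of the cardiac L-type calcium channel, had values of 10.4, 8.93 and 5.74 in MYC_Recur, against 0.1, 1.24, 0.6, 0.04 and 0.09 in MYC_HCC (log2 difference 2.76, SE 0.27, adjusted p = 8.08e-06). B3gnt9, a glycosyltransferase gene, had values of 21.3, 19.3 and 19.96 in MYC_Recur, against 5.65, 4.03, 3.65, 4.05 and 4.08 in MYC_HCC (log2 difference 2.01, SE 0.21, adjusted p = 1.46e-05). Both were above MYC_HCC in every MYC_Recur library, as was Fam160a2 (2.17 ± 0.22 SE, adjusted p = 8.3e-06). Among the falls, Rbbp5, a core subunit of the histone H3 lysine 4 methyltransferases, had values of 0.58, 1.33 and 0.11 in MYC_Recur, against 9.49, 8.67, 8.3, 11.8 and 12.9 in MYC_HCC (log2 difference -2.79, SE 0.28, adjusted p = 8.08e-06). Hnrnpul1, a nuclear RNA-binding protein, had values of 9.09, 8.47 and 10.1 in MYC_Recur, against 66.3, 81.1, 63.8, 76.2 and 94.2 in MYC_HCC (log2 difference -2.91, SE 0.27, adjusted p = 5.66e-06). Cycs, which encodes cytochrome c, had values of 23.4, 24.4 and 19.9 in MYC_Recur, against 175, 119.7, 243, 293 and 170.04 in MYC_HCC (log2 difference -3.03, SE 0.29, adjusted p = 7.29e-06). Each of these separated the groups, and Cycs has many near-identical pseudogenes, so its values are uncertain. Xpo4, a nuclear transport receptor that reached 1 in MYC_HCC alone, was listed at 0 in all 3 MYC_Recur libraries. In MYC_HCC it had 11.9, 3.7, 8.3, 8.21 and 11.8 (adjusted p = 8.15e-07). It was also listed at 0 in every MYC_OFF, MYC_Twist1_HCC and MYC_Twist1_OFF library, so a 0 was not particular to MYC_Recur. With the 2 groups fitted alone by limma its adjusted p was 0.000761.

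Some genes were far higher or lower in 1 MYC_Recur tumor than in the others, which is a description since they were chosen for it. Npm1, the nucleolar chaperone nucleophosmin and a MYC target, was chosen after its values were seen, and it has many near-identical pseudogenes, so its values are uncertain. It had values of 363.89, 830.16 and 27169 in MYC_Recur, against 2199 to 4582 in MYC_HCC. MYC_Recur 3 was thus far above MYC_HCC, and the other MYC_Recur libraries were below it. Ldhb, a lactate dehydrogenase subunit, had values of 18.8, 2.85 and 2.2 in MYC_Recur, against 0.69, 0.06, 0.57, 1.43 and 0.67 in MYC_HCC. Scarf1, a scavenger receptor, had values of 1.36, 131 and 0.56 in MYC_Recur, against 0.42, 0.49, 3.16, 1.78 and 0.71 in MYC_HCC. Clec3b, which encodes tetranectin, had values of 5.41, 6.38 and 66.97 in MYC_Recur, against 0.09, 0.35, 0, 0.99 and 0.48 in MYC_HCC. Ldhb was highest in MYC_Recur 1, Scarf1 in MYC_Recur 2 and Clec3b in MYC_Recur 3. Ldhb (adjusted p = 0.0189) and Clec3b (adjusted p = 0.0164) were above every MYC_HCC library in all 3 MYC_Recur libraries and were called higher, though Ldhb was not called without MYC_Recur 1, adjusted p = 0.129, and Clec3b was not called without MYC_Recur 3, adjusted p = 0.126. Scarf1 was not called (adjusted p = 0.241). Ndufa6, a subunit of respiratory complex I, had values of 219, 152 and 0 in MYC_Recur, against 274, 606, 111, 295 and 208 in MYC_HCC. MYC_Recur 3 was the lowest library for it.

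In all, 900 genes of 45 lists drawn up by role were tested. Of these, 46 genes were called higher (5.11%) and 43 lower (4.78%), beside 7.67% and 4.58% of all members. Without MYC_HCC 4 and 5, 33 were called higher (3.67%) and 27 lower (3%), beside 4.46% and 2.98% of all members. The counts below are to be read against those shares.

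Lists of the MYC program held single calls, too small in number to be told from the shares of all members. In the MYC network list, 1 of 12 tested members rose and none fell, with a median log2 difference of 0.33 beside 0.07 over all members, and without MYC_HCC 4 and 5 none of the 12 was called. The riser was Mxd3, a partner of MAX that opposes MYC, with values of 83.6, 101 and 129 in MYC_Recur, against 55.95, 89.9, 45.2, 26.9 and 36.5 in MYC_HCC (log2 difference 1.12, SE 0.33, adjusted p = 0.0353). Its groups overlapped and it was not called without MYC_Recur 2, MYC_Recur 3, MYC_HCC 3, MYC_HCC 4, MYC_HCC 5 or MYC_HCC 4 and 5 together, adjusted p 0.0551 to 0.19. MYC targets and ribosome biogenesis had a median of -0.01 over 38 genes, with 1 higher call and 2 lower calls, and with 0 higher and 2 lower without MYC_HCC 4 and 5. Wdr12, which is needed to mature the large ribosomal subunit, had values of 13.9, 10.4 and 6.37 in MYC_Recur, against 31.1, 24.9, 28.9, 23.7 and 32.6 in MYC_HCC (log2 difference -1.43, SE 0.28, adjusted p = 0.00304). Hspd1, the mitochondrial chaperonin HSP60, had values of 678, 599 and 73.6 in MYC_Recur, against 1355, 1032, 1775, 1085 and 1342 in MYC_HCC (log2 difference -2.05, SE 0.50, adjusted p = 0.0124). Both fell without overlap, and Hspd1 was not called without MYC_Recur 3, adjusted p = 0.0544. Utp20, a factor of small-subunit processing, rose (0.93 ± 0.29 SE, adjusted p = 0.0423) and was not called without MYC_Recur 1, MYC_Recur 2, MYC_HCC 1, MYC_HCC 3, MYC_HCC 4, MYC_HCC 5 or MYC_HCC 4 and 5 together, adjusted p 0.0578 to 0.208.

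Proliferation genes had medians near 0 as lists, and single replication and mitosis genes fell. The median log2 difference was 0.06 for 22 cyclins, kinases and inhibitors of the G1/S step, -0.06 for 35 DNA replication genes and -0.02 for 32 mitosis genes. Rfc1, the large subunit of the clamp loader that places PCNA on DNA, had values of 1.33, 1.09 and 11.9 in MYC_Recur, against 26.5, 30.1, 62.8, 23.4 and 32.8 in MYC_HCC (log2 difference -3.09, SE 0.45, adjusted p = 0.000284). Cdk2, the kinase of S-phase entry, had values of 0.58, 8.32 and 0.4 in MYC_Recur, against 13.2, 17.2, 17.2, 8.67 and 13.03 in MYC_HCC (log2 difference -2.4, SE 0.54, adjusted p = 0.00779). Kif20a, a kinesin of cytokinesis, had values of 8.35, 8.29 and 10.6 in MYC_Recur, against 57.3, 14.4, 37.6, 40.5 and 59.6 in MYC_HCC (log2 difference -1.95, SE 0.41, adjusted p = 0.00515). All of them were lower in every MYC_Recur library than in any MYC_HCC library, and Cdk2 was not called without MYC_Recur 3, adjusted p = 0.063. Pcna, the clamp itself, fell less (-1.21 ± 0.28 SE, adjusted p = 0.00825) and was not called without MYC_Recur 3, adjusted p = 0.0702. Nusap1 (-1.23 ± 0.29 SE, adjusted p = 0.00884) and Cenpf (-1.02 ± 0.28 SE, adjusted p = 0.0245), a spindle and a kinetochore protein, fell as well. Nusap1 was not called without MYC_Recur 3 or MYC_HCC 4 and 5 together, adjusted p 0.0572 to 0.0598, and Cenpf was not called without MYC_Recur 2, MYC_Recur 3, MYC_HCC 1, MYC_HCC 2 or MYC_HCC 5, adjusted p 0.0501 to 0.111. Orc1, a subunit of the origin recognition complex, went the other way with values of 22.4, 15.4 and 16.8 in MYC_Recur, against 6.42, 7.56, 6.27, 2.66 and 6.7 in MYC_HCC (log2 difference 1.51, SE 0.30, adjusted p = 0.00358). MYC_HCC 4 was the lowest of its group for Orc1, and the call held without it.

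Among p53 targets, 3 of 25 members rose and 2 fell (median 0.12), and without MYC_HCC 4 and 5 the counts were 2 and 1 (median -0.01). Pmaip1 encodes NOXA, a killer protein of the BCL2 family. Pmaip1 was at 7.88, 15.6 and 12.7 in MYC_Recur, against 3.38, 4.47, 3.19, 1.92 and 5.21 in MYC_HCC (log2 difference 1.49, SE 0.34, adjusted p = 0.00754). Ei24, a p53-induced protein of the endoplasmic reticulum, had values of 5.54, 9.43 and 3.51 in MYC_Recur, against 46.9, 19.7, 37.3, 72.2 and 47.05 in MYC_HCC (log2 difference -2.64, SE 0.49, adjusted p = 0.00207). The groups did not overlap in either gene. Plk3, a stress-activated polo-like kinase, rose (2.21 ± 0.54 SE, adjusted p = 0.0124) and was not called without MYC_Recur 2, adjusted p = 0.101. Sesn1 was the other riser of the list (0.64 ± 0.20 SE, adjusted p = 0.044) and was not called without MYC_HCC 4 and 5 together. Polk, a translesion polymerase, was the other faller (-1.27 ± 0.34 SE, adjusted p = 0.0212). Polk was not called without MYC_Recur 3, MYC_HCC 5 or MYC_HCC 4 and 5 together, adjusted p 0.0508 to 0.118, and its groups overlapped. In the BCL2 family and caspase list 3 of 24 rose, and 2 without MYC_HCC 4 and 5. The risers included Apaf1, the scaffold of the apoptosome (1.04 ± 0.31 SE, adjusted p = 0.0357), and Bok (1.34 ± 0.41 SE, adjusted p = 0.038). Apaf1 was not called without MYC_Recur 1, MYC_Recur 2, MYC_Recur 3, MYC_HCC 1, MYC_HCC 3, MYC_HCC 4, MYC_HCC 5 or MYC_HCC 4 and 5 together, adjusted p 0.0532 to 0.145, and Bok was not called without MYC_Recur 1, MYC_Recur 2, MYC_Recur 3, MYC_HCC 2 or MYC_HCC 3, adjusted p 0.077 to 0.0997. Trp53bp1, a repair factor at double-strand breaks, was the only call among 27 repair genes (1.41 ± 0.35 SE, adjusted p = 0.0132) and was not called without MYC_Recur 1 or MYC_HCC 4 and 5 together, adjusted p 0.053 to 0.0607.

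Liver function lists had negative medians that rested in large part on MYC_HCC 4. Bile acid synthesis and transport had a median log2 difference of -0.67, with 15 of 16 members negative and none called. Fatty acid oxidation and ketogenesis followed at -0.52, cytochrome P450 and drug metabolism at -0.41, amino acid breakdown and the urea cycle at -0.38, and mature hepatocyte genes at -0.34. Without MYC_HCC 4 those medians became -0.10, -0.25, 0.11, -0.08 and -0.09. Without MYC_HCC 4 and 5 they were -0.04, -0.19, 0.17, -0.16 and -0.02. Negative in that fit were 9 of 16, 18 of 25, 12 of 31, 21 of 33 and 22 of 40 members, in the same order. The acute phase list, at -0.42, and the complement and coagulation list, at -0.33, both had -0.09 without MYC_HCC 4. The bile acid uptake transporter Slc10a1 had values of 18.2, 12.9 and 11.8 in MYC_Recur, against 21.4, 26.9, 16.1, 206 and 25.1 in MYC_HCC (log2 difference -1.24, SE 0.54, adjusted p = 0.152). MYC_HCC 4 was far above the other libraries, and MYC_HCC 3 lay inside the MYC_Recur range.

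The oncofetal list showed the same library from the other side. Its median was 0.37 with all MYC_HCC libraries and 0.00 without MYC_HCC 4, and none of its 18 members was called. Afp, the fetal albumin relative used as a liver cancer marker, had values of 1554, 1896 and 2969 in MYC_Recur, against 1951, 1484, 2080.1, 5.55 and 2564 in MYC_HCC (log2 difference 1.7, SE 1.3, adjusted p = 0.434). MYC_HCC 4 was nearly without it, and the other libraries of both groups lay together. Igf2, a fetal growth factor, had values of 1355, 1882 and 3559.6 in MYC_Recur, against 1233, 1124, 1586, 4736 and 1545 in MYC_HCC (log2 difference 0.26, SE 0.41, adjusted p = 0.739) and was highest in MYC_HCC 4. Albumin, the main hepatocyte product (Alb), lay between 1409 and 2280 in MYC_Recur and between 1449.8 and 4480.1 in MYC_HCC, so both groups held hepatocyte RNA. The nuclear receptor Hnf4a lay between 60.4 and 64.1 in MYC_Recur and between 68.1 and 114 in MYC_HCC, without overlap and without a call (adjusted p = 0.0955).

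A few liver genes were called with and without MYC_HCC 4. Cyp2f2, a cytochrome P450 of periportal hepatocytes in mice, had values of 0, 0.02 and 0.07 in MYC_Recur, against 1.29, 2.16, 0.97, 20 and 6.17 in MYC_HCC (log2 difference -2.17, SE 0.55, adjusted p = 0.0145). Acads, the short-chain acyl-CoA dehydrogenase of fatty acid oxidation, had values of 22.1, 19.6 and 11.6 in MYC_Recur, against 50.3, 41.1, 45.9, 54.3 and 42.3 in MYC_HCC (log2 difference -1.38, SE 0.31, adjusted p = 0.00738). In both genes MYC_Recur lay below every MYC_HCC library, and Acads was not called without MYC_Recur 3, adjusted p = 0.0588. Gls2, the liver glutaminase, fell (-0.82 ± 0.20 SE, adjusted p = 0.0103) and was not called without MYC_Recur 2, adjusted p = 0.0537, and Prodh, of proline breakdown, fell (-1.16 ± 0.36 SE, adjusted p = 0.0393) and was not called without MYC_Recur 2, MYC_Recur 3, MYC_HCC 1 or MYC_HCC 4 and 5 together, adjusted p 0.0547 to 0.172. Cyp2c50, a P450 whose reads may be shared with close paralogs, rose (2.55 ± 0.68 SE, adjusted p = 0.0189) and was not called without MYC_Recur 2 or MYC_Recur 3, adjusted p 0.054 to 0.121. Complement C3 fell (-1.68 ± 0.45 SE, adjusted p = 0.0215) and was not called without MYC_Recur 1, MYC_Recur 2, MYC_Recur 3, MYC_HCC 5 or MYC_HCC 4 and 5 together, adjusted p 0.0545 to 0.0806. Orm3, an acute phase gene with near-identical copies, rose (1.55 ± 0.42 SE, adjusted p = 0.0202) as the only call of 24 acute phase genes and was not called without MYC_Recur 1, MYC_Recur 2 or MYC_Recur 3, adjusted p 0.0524 to 0.0693. Krt18, a keratin of epithelia, was the 1 call of 11 biliary and progenitor genes (-1.69 ± 0.53 SE, adjusted p = 0.045). Its groups overlapped, and it was not called without MYC_Recur 2, MYC_Recur 3, MYC_HCC 1, MYC_HCC 3, MYC_HCC 5 or MYC_HCC 4 and 5 together, adjusted p 0.0698 to 0.259. Fatty acid and sterol synthesis had no call among 30 genes and a median of -0.08.

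Signalling lists held calls in both directions and no common shift. In the MAPK and receptor kinase list 3 of 29 members rose and Map2k2, given above, fell, and without MYC_HCC 4 and 5 there was 1 call in each direction. Pik3ca, the catalytic subunit of PI3-kinase, had values of 13.5, 14.2 and 25.02 in MYC_Recur, against 3.18, 2.23, 2.98, 4.41 and 3.63 in MYC_HCC (log2 difference 2.08, SE 0.42, adjusted p = 0.00402). Erbb2, a receptor tyrosine kinase, had values of 27.8, 3.47 and 74.4 in MYC_Recur, against 1.76, 0.47, 0.26, 0.37 and 3.05 in MYC_HCC (log2 difference 3.45, SE 1.0, adjusted p = 0.0308). Both separated the groups, and Erbb2 was not called without MYC_Recur 1, MYC_Recur 3, MYC_HCC 2, MYC_HCC 3, MYC_HCC 4 or MYC_HCC 4 and 5 together, adjusted p 0.0525 to 0.18. Braf rose by less (0.84 ± 0.24 SE, adjusted p = 0.026) and was not called without MYC_Recur 2, MYC_HCC 5 or MYC_HCC 4 and 5 together, adjusted p 0.0565 to 0.155. Among 16 Wnt and pericentral genes, the receptor Fzd6 had values of 9.71, 8.45 and 9.07 in MYC_Recur, against 1.98, 3.05, 1.31, 2.07 and 0.83 in MYC_HCC (log2 difference 1.87, SE 0.28, adjusted p = 0.000305), without overlap. Znrf3, a ligase that removes Wnt receptors, rose (1.69 ± 0.44 SE, adjusted p = 0.0179), and the receptor Fzd7 fell (-1.62 ± 0.44 SE, adjusted p = 0.0221) with overlapping groups. Znrf3 was not called without MYC_Recur 1, MYC_Recur 3 or MYC_HCC 4 and 5 together, adjusted p 0.0508 to 0.088, and Fzd7 was not called without MYC_Recur 1, MYC_Recur 3, MYC_HCC 5 or MYC_HCC 4 and 5 together, adjusted p 0.0534 to 0.118. Jag2, a Notch ligand, rose (1.27 ± 0.34 SE, adjusted p = 0.0217) and was not called without MYC_Recur 1 or MYC_HCC 4 and 5 together, adjusted p 0.0547 to 0.109.

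In the TGF-beta list the ligand gene Tgfb2 rose and the shared mediator gene Smad4 fell. Tgfb2 had values of 24.3, 4.18 and 7.47 in MYC_Recur, against 0.13, 0.16, 0.72, 0.39 and 0.27 in MYC_HCC (log2 difference 2.97, SE 0.58, adjusted p = 0.00296). Smad4, the partner of all receptor-activated SMADs, had values of 4.87, 5.97 and 2.85 in MYC_Recur, against 22.7, 28.1, 14.6, 22.6 and 20.8 in MYC_HCC (log2 difference -2.05, SE 0.34, adjusted p = 0.000967). Neither overlapped between the groups, and both calls held without each library, but Tgfb2 reached 1 in MYC_Recur alone. Smad3 rose by less (0.90 ± 0.27 SE, adjusted p = 0.0372) and was not called without MYC_Recur 1, MYC_Recur 2, MYC_Recur 3, MYC_HCC 1, MYC_HCC 2, MYC_HCC 3, MYC_HCC 4 or MYC_HCC 4 and 5 together, adjusted p 0.0506 to 0.11. The list as a whole had 2 members higher and 1 lower of 21, with and without MYC_HCC 4 and 5, and a median of 0.02 with all libraries and 0.15 without those. Tead1, a DNA-binding partner of YAP, fell with values of 0.75, 1.06 and 0.44 in MYC_Recur, against 2.92, 3.24, 2.9, 3.06 and 3.3 in MYC_HCC (log2 difference -1.24, SE 0.26, adjusted p = 0.00505), without overlap. In the AP-1 and immediate early list 9 of 11 members were negative (median -0.50). Jund fell (-0.89 ± 0.21 SE, adjusted p = 0.00978), as did Ier2 (-0.76 ± 0.19 SE, adjusted p = 0.0129), and Klf2 rose (1.93 ± 0.56 SE, adjusted p = 0.0301). The median of that list was -0.34 without MYC_HCC 4, and -0.18 with 6 of 11 members negative without MYC_HCC 4 and 5. Ier2 was not called without MYC_Recur 2 or MYC_Recur 3, adjusted p 0.062 to 0.0765, and Klf2 was not called without MYC_Recur 1, MYC_Recur 2, MYC_Recur 3, MYC_HCC 2, MYC_HCC 4 or MYC_HCC 4 and 5 together, adjusted p 0.0505 to 0.112.

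Stress lists held opposite changes in genes of antioxidant defense. Gclc, the rate-limiting enzyme of glutathione synthesis, had values of 1.9, 1.46 and 0.54 in MYC_Recur, against 22.7, 12.1, 14.03, 56.4 and 28.6 in MYC_HCC (log2 difference -3.43, SE 0.46, adjusted p = 0.00013). Sod2, the mitochondrial superoxide dismutase, had values of 144, 232 and 179 in MYC_Recur, against 56.1, 41.7, 52.97, 80.9 and 50.1 in MYC_HCC (log2 difference 1.7, SE 0.31, adjusted p = 0.00164). Each separated the groups, and no other gene of the 24 in the NRF2 and oxidative stress list was called. Dnajb9, a chaperone of the endoplasmic reticulum, fell (-1.43 ± 0.26 SE, adjusted p = 0.0016) as the only call of 24 unfolded protein and integrated stress response genes. Kdm3a, a histone demethylase induced by low oxygen, fell (-1.54 ± 0.31 SE, adjusted p = 0.0037) as the only call of 19 hypoxia genes. The efflux pump Abcg2 had values of 1.07, 2.63 and 0.72 in MYC_Recur, against 12.2, 11.8, 11.6, 12.8 and 15.6 in MYC_HCC (log2 difference -2.55, SE 0.35, adjusted p = 0.000165), and the cholesterol exporter Abca1 had values of 3.65, 3.18 and 2.07 in MYC_Recur, against 8.72, 7.04, 7.45, 16.9 and 12.3 in MYC_HCC (log2 difference -1.49, SE 0.27, adjusted p = 0.00176). Both were lower in every MYC_Recur library. Slc47a1, a cation exporter, rose (0.78 ± 0.24 SE, adjusted p = 0.0425) with overlapping groups and was not called without MYC_Recur 2, MYC_Recur 3, MYC_HCC 2, MYC_HCC 4, MYC_HCC 5 or MYC_HCC 4 and 5 together, adjusted p 0.0537 to 0.299.

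**Figure D4:**
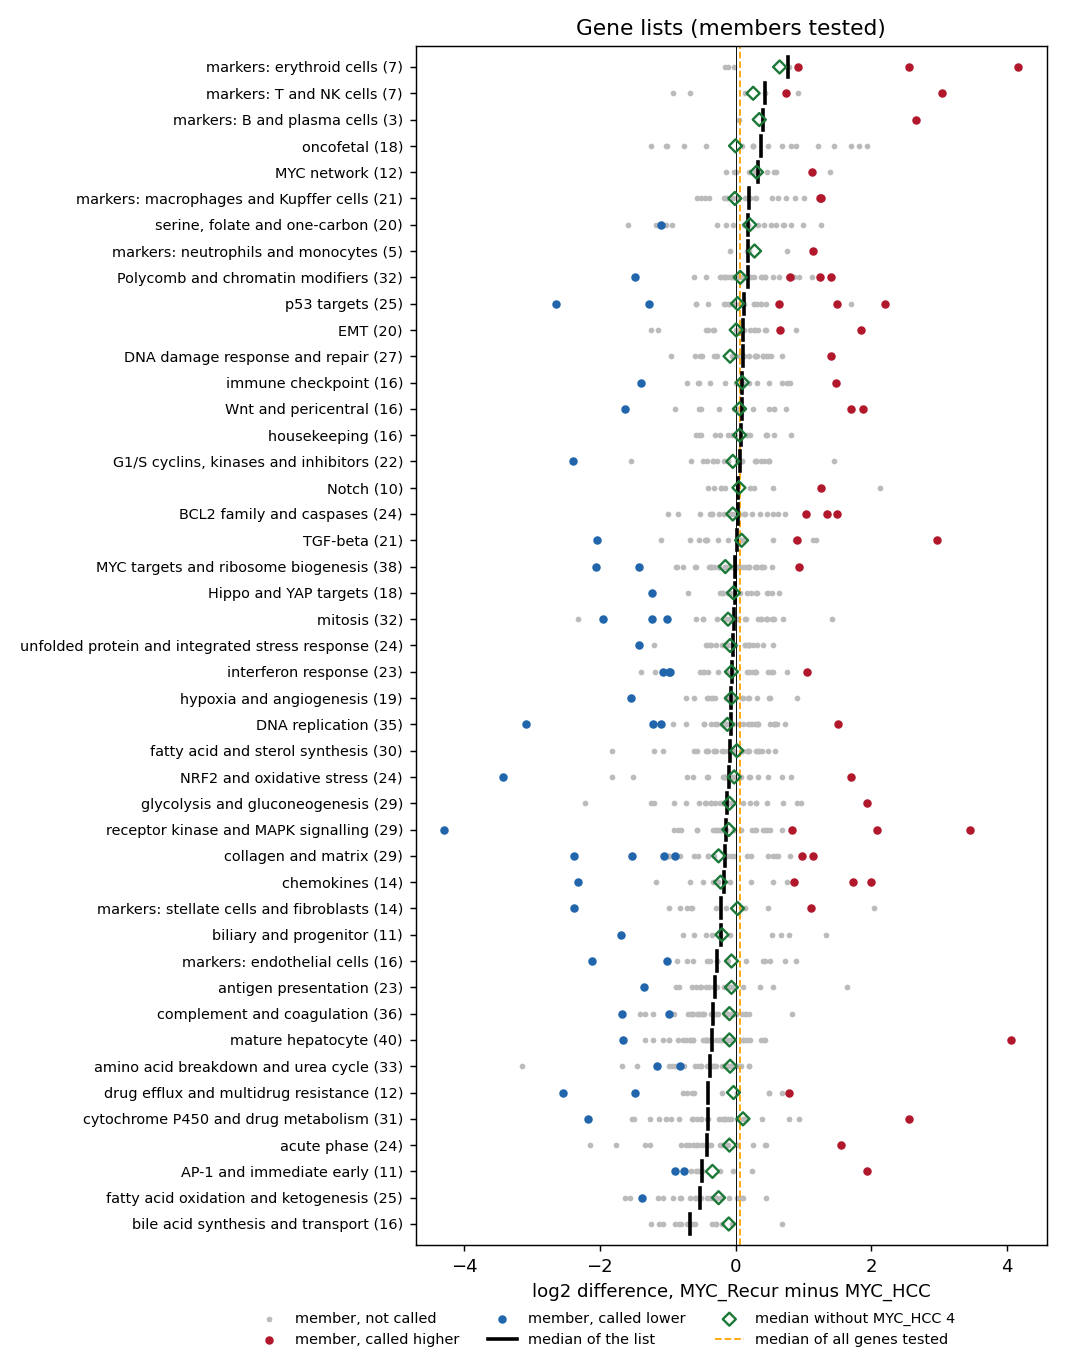
Log2 difference (MYC_Recur minus MYC_HCC, horizontal axis) of every tested member of the 45 gene lists, with called members in color, the list median as a black bar and the median without MYC_HCC 4 as an open diamond. Bile acid genes move from -0.67 to -0.10 and oncofetal genes from 0.37 to 0.00 when MYC_HCC 4 is left out.

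Interferon genes held calls in both directions. Ifi35 rose (1.05 ± 0.22 SE, adjusted p = 0.00525), and Igtp (-1.07 ± 0.24 SE, adjusted p = 0.00702), Irf1 (-0.97 ± 0.22 SE, adjusted p = 0.00826) and Stat2 (-0.99 ± 0.31 SE, adjusted p = 0.0441) fell among 23 interferon genes (median -0.05), where 1 higher and 2 lower calls and a median of 0.13 were found without MYC_HCC 4 and 5. Irf1 was not called without MYC_Recur 3, adjusted p = 0.0632, and Stat2 was not called without MYC_Recur 1, MYC_Recur 2, MYC_Recur 3, MYC_HCC 1, MYC_HCC 4, MYC_HCC 5 or MYC_HCC 4 and 5 together, adjusted p 0.0541 to 0.123. H2-Aa, a class II chain, was the 1 call of 23 antigen presentation genes (-1.35 ± 0.42 SE, adjusted p = 0.0428) and was not called without MYC_Recur 2, MYC_Recur 3, MYC_HCC 4, MYC_HCC 5 or MYC_HCC 4 and 5 together, adjusted p 0.0715 to 0.242. The list median was -0.30 with all libraries, -0.06 without MYC_HCC 4 and 0.02 without MYC_HCC 4 and 5, where 1 member was called higher and none lower. Among chemokines, Ccl20, which attracts CCR6-bearing lymphocytes, had values of 3.05, 4.26 and 13.3 in MYC_Recur, against 0.77, 0.62, 0.91, 0 and 1.53 in MYC_HCC (log2 difference 1.99, SE 0.35, adjusted p = 0.0015). Its groups did not overlap. Cxcl12 (0.87 ± 0.22 SE, adjusted p = 0.0155) and Ccl27a (1.73 ± 0.46 SE, adjusted p = 0.0198) rose and Ccl6 fell (-2.33 ± 0.58 SE, adjusted p = 0.0129). Cxcl12 was not called without MYC_Recur 2 or MYC_Recur 3, adjusted p 0.0572 to 0.0723, Ccl27a was not called without MYC_Recur 2, MYC_HCC 5 or MYC_HCC 4 and 5 together, adjusted p 0.0508 to 0.144, and Ccl6 was not called without MYC_Recur 3 or MYC_HCC 4 and 5 together, adjusted p 0.0707 to 0.0709. Cd200, a ligand that restrains macrophages, fell (-1.39 ± 0.34 SE, adjusted p = 0.011), and the inhibitory receptor Tigit rose (1.48 ± 0.40 SE, adjusted p = 0.0211). Tigit was not called without MYC_Recur 2, MYC_Recur 3 or MYC_HCC 4 and 5 together, adjusted p 0.0546 to 0.0908.

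Markers of other cell types differed gene by gene. Summed values of 26 T and NK cell markers ran from 24.1 to 128 in MYC_Recur and from 14.5 to 22.1 in MYC_HCC. Most of the highest sum was Foxp3, the factor of regulatory T cells, with values of 12.04, 92.7 and 4.74 in MYC_Recur, against 1.03, 1.99, 1.57, 0.93 and 1.26 in MYC_HCC (log2 difference 3.04, SE 0.79, adjusted p = 0.0174). MYC_Recur 2 was far above the rest, and Foxp3 was not called without MYC_Recur 2 or MYC_HCC 4 and 5 together, adjusted p 0.0697 to 0.135. The defining T cell gene Cd3e did not exceed 0.06 in MYC_Recur or 0.44 in MYC_HCC. Prf1, Klrb1c, Klrd1 and Tbx21 were at 0 in all 3 MYC_Recur libraries and did not exceed 0.38 in MYC_HCC. Other low markers were higher in every MYC_Recur library than in any MYC_HCC library, such as Cd3d (0.97 to 1.5 against 0.14 to 0.51), Zap70, Gzmb and Il2rb. Cd8a (0 to 0.04 against 0.08 to 0.28) and Tbx21, given above, were lower in every MYC_Recur library than in any MYC_HCC library. Cd4 (0.16 to 0.65 against 0.6 to 2.98) and Nkg7 (0.03 to 0.15 against 0.14 to 0.45) were mostly lower, with overlap. Of the 7 markers tested, 5 had positive and 2 negative differences (median 0.43, and 0.21 without MYC_HCC 4 and 5), with 2 called higher and 0 lower. Cd247, a T cell receptor chain, rose (0.74 ± 0.20 SE, adjusted p = 0.0208) and was not called without MYC_Recur 1 or MYC_Recur 2, adjusted p 0.0567 to 0.0856. Summed B and plasma cell markers ran from 54.5 to 158 in MYC_Recur and from 44.3 to 62.8 in MYC_HCC. Most of each sum was Xbp1, which hepatocytes also express, with values of 37.5, 58.99 and 121 in MYC_Recur, against 39.97, 48.3, 56.3, 41.5 and 58.97 in MYC_HCC. Cd79b, a chain of the B cell receptor, had values of 9.75, 1.15 and 29.1 in MYC_Recur, against 0.45, 0.42, 0.37, 0.44 and 0.33 in MYC_HCC (log2 difference 2.66, SE 0.51, adjusted p = 0.00282), whereas the B cell surface gene Ms4a1 was at 0 in all 3 MYC_Recur libraries and did not exceed 0.17 in MYC_HCC. What part such cells had in the differences was not tested.

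Macrophage and Kupffer cell markers summed to between 826 and 1114 in MYC_Recur and to between 417 and 1075 in MYC_HCC. Of 21 tested, 13 had positive and 8 negative differences, with 2 called higher and 0 lower. The list median was 0.20 with all libraries, -0.01 without MYC_HCC 4 and 0.22 without MYC_HCC 4 and 5. The calls were Trem2 (1.25 ± 0.39 SE, adjusted p = 0.0418) and Gpnmb (1.26 ± 0.34 SE, adjusted p = 0.0218), both known from lipid-laden macrophages. Trem2 was not called without MYC_Recur 1, MYC_Recur 3, MYC_HCC 1, MYC_HCC 2, MYC_HCC 3, MYC_HCC 4 or MYC_HCC 4 and 5 together, adjusted p 0.0507 to 0.161. Gpnmb had overlapping groups and was not called without MYC_Recur 2, MYC_Recur 3 or MYC_HCC 1, adjusted p 0.0514 to 0.132. Neutrophil and monocyte markers summed to between 74.4 and 103 in MYC_Recur and to between 31.8 and 100.4 in MYC_HCC, and S100a9 was called (1.14 ± 0.35 SE, adjusted p = 0.0408) but was not called without MYC_Recur 1, MYC_Recur 2, MYC_Recur 3, MYC_HCC 1, MYC_HCC 2, MYC_HCC 3, MYC_HCC 5 or MYC_HCC 4 and 5 together, adjusted p 0.0502 to 0.177. Endothelial markers summed to between 55.8 and 92.9 in MYC_Recur and to between 60.4 and 180 in MYC_HCC, where MYC_HCC 4 was highest. Cdh5, the cadherin of endothelial junctions, had values of 1.91, 1.7 and 0.29 in MYC_Recur, against 4.73, 3.37, 8.01, 39.3 and 6.8 in MYC_HCC (log2 difference -2.11, SE 0.57, adjusted p = 0.0215). It separated the groups, but was not called without MYC_Recur 3 or MYC_HCC 4 and 5 together, adjusted p 0.0665 to 0.119. Gpr182, a receptor of sinusoidal endothelium, fell (-1.01 ± 0.24 SE, adjusted p = 0.00972), though it reached 1 in MYC_HCC alone. Of 16 endothelial markers tested, 2 were called lower and none higher, and 6 had positive differences. The list median was -0.27 with all libraries, -0.06 without MYC_HCC 4 and 0.13 without MYC_HCC 4 and 5, where 1 was called lower and 7 were negative. Emcn, an endothelial sialomucin chosen after its values were seen, had values of 9.28, 11.2 and 5.67 in MYC_Recur, against 4.17, 4.15, 4.51, 13.9 and 4.87 in MYC_HCC and was not called (adjusted p = 0.491). Red cell markers summed to between 473 and 605 in MYC_Recur and to between 410 and 494 in MYC_HCC, with Alas2, of heme synthesis in red cells, higher (0.92 ± 0.23 SE, adjusted p = 0.0126) and not called without MYC_Recur 3, adjusted p = 0.0758. Of 7 tested red cell markers 4 had positive and 3 negative differences. Among them 3 were called higher and none lower (median 0.78, and 0.62 with the same counts without MYC_HCC 4 and 5). The other called markers were Klf1, given above, and the beta globin symbol HBB-B1. HBB-B1 had 19.2, 29.4 and 36.6 in MYC_Recur, against 11.3, 12.2, 15.3, 0 and 0 in MYC_HCC (2.56 ± 0.75 SE, adjusted p = 0.0314). HBB-B1 was listed at 0 in MYC_HCC 4 and 5 and not called without MYC_Recur 2, MYC_Recur 3, MYC_HCC 4 or MYC_HCC 5, adjusted p 0.0561 to 0.116. Without MYC_HCC 4 and 5 together its log2 difference was 1.04 (adjusted p = 0.0189). The alpha globin gene Hba-a1, the highest of these markers, lay between 267 and 362 in MYC_Recur and between 262 and 355 in MYC_HCC. The beta globin symbol HBB-B2 overlapped between the groups and was not called. Car1, another red cell marker, was at 0 in all 3 MYC_Recur libraries and at 0.05 to 2.67 in MYC_HCC.

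Calls among matrix genes went both ways, and their balance depended on MYC_HCC 4 and 5. Stellate cell and fibroblast markers summed to between 67.7 and 127 in MYC_Recur and to between 45.5 and 204 in MYC_HCC. Dcn, which encodes the proteoglycan decorin, had values of 0.07, 0 and 0 in MYC_Recur, against 2.32, 0.44, 1.35, 30.04 and 11.4 in MYC_HCC (log2 difference -2.38, SE 0.66, adjusted p = 0.0233). It did not overlap, but reached 1 in MYC_HCC alone and was not called without MYC_Recur 1, MYC_Recur 2, MYC_Recur 3 or MYC_HCC 5, adjusted p 0.0559 to 0.0781. Ecm1, a secreted matrix protein, was the other call of the 14 markers tested, with values of 8.31, 10.1 and 7.71 in MYC_Recur, against 1.78, 2.61, 1.76, 7.93 and 6.23 in MYC_HCC (log2 difference 1.11, SE 0.36, adjusted p = 0.0484). Its groups overlapped, and it was not called without MYC_Recur 1, MYC_Recur 2, MYC_Recur 3, MYC_HCC 1, MYC_HCC 2 or MYC_HCC 3, adjusted p 0.086 to 0.162, whereas without MYC_HCC 4 and 5 together its adjusted p was 0.00172. The median of these markers was -0.21 with 8 of 14 negative, and 0.28 with 5 of 14 negative without MYC_HCC 4 and 5. In the collagen and matrix list 2 of 29 members rose and 4 fell (median -0.15), and without MYC_HCC 4 and 5 there were 3 higher calls and 1 lower call (median -0.03). Loxl2, a collagen cross-linking enzyme, fell (-1.06 ± 0.28 SE, adjusted p = 0.0176), as did Col6a2 (-1.53 ± 0.43 SE, adjusted p = 0.0248), and the laminin gene Lamb2 rose (0.97 ± 0.24 SE, adjusted p = 0.0127). Loxl2 was not called without MYC_Recur 3 or MYC_HCC 4 and 5 together, adjusted p 0.0831 to 0.114, Col6a2 was not called without MYC_Recur 1, MYC_Recur 3, MYC_HCC 4, MYC_HCC 5 or MYC_HCC 4 and 5 together, adjusted p 0.0515 to 0.153 with overlapping groups, and Lamb2 was not called without MYC_Recur 2 or MYC_HCC 4 and 5 together, adjusted p 0.0519 to 0.0565. Itgb1, an integrin chain of the EMT list, rose (0.66 ± 0.20 SE, adjusted p = 0.0366) with overlapping groups and was not called without MYC_Recur 1, MYC_Recur 3, MYC_HCC 1, MYC_HCC 2, MYC_HCC 3 or MYC_HCC 5, adjusted p 0.0575 to 0.194.

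Among chromatin modifiers, 3 of 32 members rose (median 0.18), and none of the 32 was called without MYC_HCC 4 and 5. Eed, a subunit of Polycomb repressive complex 2, had values of 63.6, 42.9 and 99.7 in MYC_Recur, against 27.8, 20.9, 33.4, 21.2 and 33.8 in MYC_HCC (log2 difference 1.24, SE 0.33, adjusted p = 0.0195). The groups did not overlap. Cbx2, of Polycomb repressive complex 1, rose (0.81 ± 0.20 SE, adjusted p = 0.0141), as did the demethylase Kdm6a (1.41 ± 0.39 SE, adjusted p = 0.0226). These calls were sensitive to single libraries: Eed was not called without MYC_Recur 3 or MYC_HCC 4 and 5 together, adjusted p 0.0573 to 0.13, Cbx2 was not called without MYC_Recur 3 or MYC_HCC 4 and 5 together, adjusted p 0.0569 to 0.0888, and Kdm6a was not called without MYC_Recur 1 or MYC_HCC 4 and 5 together, adjusted p 0.0655 to 0.13. None of 16 housekeeping genes was called, with a median of 0.08, and Gapdh had values of 5303, 6106 and 7133 in MYC_Recur, against 5589.9, 5265, 5939, 4097 and 5902 in MYC_HCC.

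A block of 5S ribosomal RNA symbols rose as 1 row. All 21 tested rRNA symbols were called higher, with a median log2 difference of 1.92, but 20 of them held identical values in all 19 libraries, so the authors' table carries 1 measurement for them. Those values were 1.22, 11.6 and 6.4 in MYC_Recur and 0.63, 1.08 and 0.7 in MYC_HCC 1, 2 and 3. Without MYC_HCC 4 and 5 none of the 21 was called, beside 4.46% of all members called higher in that fit, and the median was 1.72.

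Outside MYC_HCC 4 and 5, the same values were also listed for 11 genes that are not 5S RNA, among them Mitf, Il16, Map3k13 and Snai3. Of the 31 symbols of that block 29 were called higher, beside 7.67% of all members, but they repeat 1 set of values outside MYC_HCC 4 and 5. Snai3, of the Snail family, was called (1.84 ± 0.51 SE, adjusted p = 0.0245) and was not called without MYC_Recur 2, MYC_Recur 3 or MYC_HCC 4 and 5 together, adjusted p 0.088 to 0.165, so its call cannot be told from the 5S row. Dync1li2, Folr1 and Spopl shared values of 5.45, 128 and 58.4 in MYC_Recur, against 4.5, 6.53 and 8.2 in MYC_HCC 1, 2 and 3, and were all called higher. The cause of the shared rows was not tested.

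By gene class, 801 of 11252 protein-coding members rose (7.12%) and 524 fell (4.66%), against 483 and 336 without MYC_HCC 4 and 5. Of 413 members annotated as pseudogenes or other noncoding RNA, 67 rose (16.2%) and 14 fell, against 39 and 11 without MYC_HCC 4 and 5. Of 63 snoRNA members, 7 rose with all libraries and 2 without MYC_HCC 4 and 5, and of 27 miRNA members 5 and 1 did. The E-box CACGTG was in 70 of 639 promoter windows of higher genes (11%), in 46 of 408 of lower genes (11.3%) and in 931 of 8797 of all members (10.6%). Of all 27025 RefSeq windows of the same 300 bases, 7.24% held it. A match is a string of letters and says nothing of binding. Longest annotated transcripts had medians of 3295 bases for higher genes, 3236 for lower genes and 3212 for all members.

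Chromosome medians were near 0 in MYC_Recur. The median over a chromosome's members of a MYC_Recur library minus the MYC_HCC mean, centred on that library's median over all members, ran from -0.12 to 0.07 over all chromosomes and libraries. In MYC_HCC 4, taken against the other MYC_HCC libraries, the 285 members on chromosome 18 had a median of 0.53, whereas its other chromosomes lay between -0.09 and 0.13. On chromosome 18, 51.2% of members were higher in MYC_HCC 4 than in every other MYC_HCC library, against 26.6% of all members. On chromosome 8, 11.7% of members were called higher, and 8.81% without the 5S symbols.

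**Figure D5:**
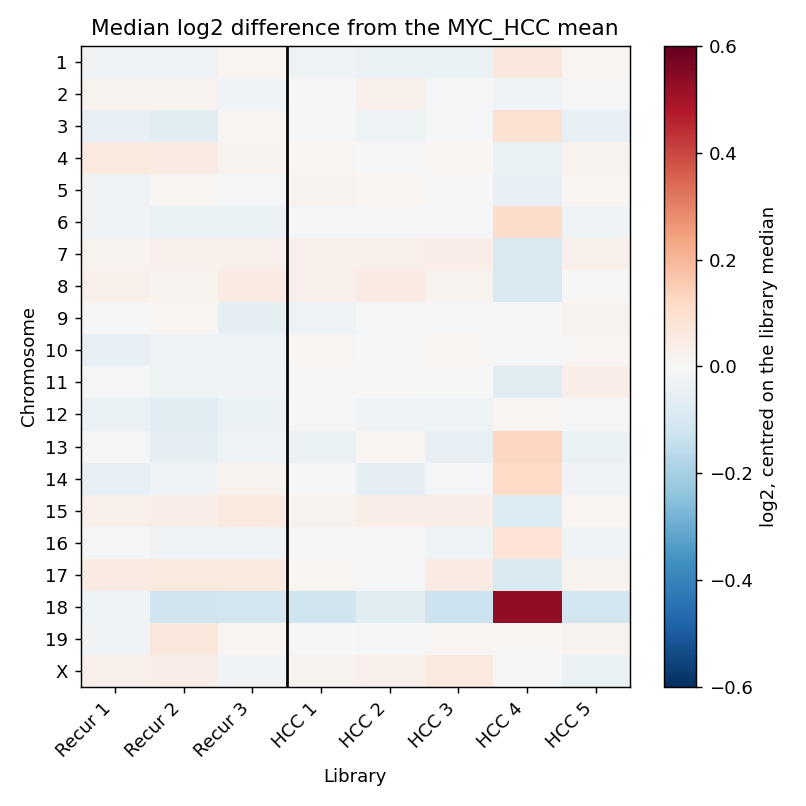
Median log2 difference of each chromosome's members (rows) in each library (columns), centred on the library's median, for MYC_Recur against the MYC_HCC mean and for each MYC_HCC library against the other MYC_HCC libraries; color runs from lower (blue) to higher (red). MYC_Recur medians stay between -0.12 and 0.07, and chromosome 18 in MYC_HCC 4 stands out at 0.53.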

How the data were processed

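RNA sequencing of mouse liver tumors was deposited as 1 table of values per gene symbol. The authors deposited normalized signal values with 2 decimals, made with Trimmomatic, STAR, Picard, featureCounts and DESeq2 on mm10, per the submitters' processing notes. No version, annotation, strand setting or formula for the values is given in the sources used here. The values are not whole, and the depth of each library is unknown. For 52 low symbols, 76.2% of 223 values lay within 0.1 of a whole multiple of a common step, and the relative step ran from 0.941 to 1.09 over the 8 libraries. Those steps did not give whole reads for nearly all genes, so no count test was run.

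Of 19511 symbols, 25 were bare numbers and were left out. Of the rest, 18142 matched GENCODE symbols on GRCm38, 1040 matched through RefSeq synonyms (GRCm38.p6), and 304 matched neither and keep their deposited form. Promoters come from RefSeq, and 11788 members have a position.

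Values were used as deposited. limma 3.58.1 (R 4.3.3) was fitted to log2(value + 1) with its trend option. All 19 libraries entered 1 fit of 5 group means, with the contrast MYC_Recur minus MYC_HCC, 2-sided p-values and Benjamini-Hochberg adjustment over the 11887 members. A gene was called at an adjusted p under 0.05. The scale understates changes of low genes. The steps were tested on simulated data. Lists and chromosomes were described by counts and medians.

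Named genes are Myc and Twist1, the 12 largest rises and 12 largest falls, the 6 rises and 6 falls with the smallest p, genes furthest outside all other libraries in single MYC_Recur libraries, and up to 4 called list members with 1 more where members went both ways. The first kinds needed groups without overlap, a group mean of at least 2.59 (the 40th percentile of values above 0) and a symbol that is neither predicted nor a clone. Cell type markers come from lists, and genes outside these rules were chosen after their values were seen. The members, lists and tests were chosen with earlier results of these data known. Alternatives were other scalings, filters, pseudocounts, the 2 groups alone, the replicate number as a block, no trend, and libraries left out. Tables were handled in Python 3.11.15 with pandas 2.3.3. Some named genes are not reported here.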

Additional observations from a re-analysis of the deposited data

Results flagged for a closer look

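In 148 results of the 5 MYC_HCC libraries, 19 had a highest or lowest library set apart from the others by more than 0.71 of the group's range, and 15 of the 19 were in MYC_HCC 4. For normally spread values chance gives such a library in about 1 of 20 groups. Most values here are unlogged, the results share the same libraries, and many genes were chosen for their differences. The 19 of 148 therefore cannot be judged against that rate.

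MYC_HCC 4 was the highest MYC_HCC library for several liver and growth genes: Slc10a1 at 206.15, Akr1d1, a reductase of bile acid synthesis, at 117.97, Prodh at 29.54, Cyp2f2 at 20, Igf2 at 4736.08 and Orm3 at 2.28. It was also highest for Kdm3a at 7.50, Stat2 at 13.46, Cd200 at 5.94, Twist1 at 0.27 and Cdh5 at 39.34. Its summed endothelial markers were 180. It was the lowest MYC_HCC library for Orc1 at 2.66 and Jag2 at 0.78. The median of its chromosome 18 members lay 0.53 above that of the other MYC_HCC libraries on the log2 scale.

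The remaining values apart from their group were Fzr1 at 29.44 in MYC_HCC 2, B3gnt9 at 5.65 in MYC_HCC 1, Rfc1 at 62.76 in MYC_HCC 3 and Cd247 at 6.33 in MYC_HCC 5, each the highest of its group.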

How the results depend on the processing

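The count of genes called higher was 912 and that called lower 544. With the replicate number as a block the counts were 595 higher and 374 lower in all libraries, and 557 higher and 368 lower in the 2 groups alone. Leaving out 1 library at a time gave 539 to 854 higher and 268 to 539 lower calls, both lowest without MYC_Recur 3. Without MYC_Recur 2 there were 563 and 377. Without MYC_HCC 4 and 5 there were 530 higher and 354 lower. Whether replicate numbers pair these samples is not given. Deviations of same-numbered libraries from their group means correlated at 0.05, -0.014 and 0.138. Those of differently numbered libraries correlated at -0.236 to 0.075. Such correlations over all members cannot show or exclude a shared animal.

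Myc had a log2 difference of -0.03, which ran from -0.10 to 0.02 with 1 library left out, and was 0.02 (adjusted p = 0.964) without MYC_HCC 2. Idi1, of sterol synthesis, had 0.20 and changed sign to -0.01 (block, all libraries), -0.16 (block, the 2 groups alone), -0.01 (without MYC_HCC 5, where leaving out 1 library gave -0.01 to 0.36) and -0.16 (without MYC_HCC 4 and 5). Igf2 had 0.26, and -0.13 to 0.62 with 1 library left out, the lowest without MYC_Recur 3. None of these was called. The chromosome 18 median in MYC_HCC 4 was 0.53, with 0.48 as a mean and 0.46 to 0.53 with 1 library left out.

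Over 126 named genes and 23 alternatives, 2494 values kept their direction and side of the threshold, 398 lost the call and 5 changed sign. Of list medians, 800 moved by less than the spread between replicates and 235 by more. Of 118 named calls, 78 held without MYC_HCC 4 and 5 and 54 without each of the 8 libraries. Leaving out the OFF groups, an alternative chosen after seeing the data, gave 1002 higher and 597 lower calls. Unknown depth limits what low values can show.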
